A study of Rattus norvegicus with 32 samples.

Results

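The genes described are 78 receptors and surface antigens of the rat hippocampus, most of them known from myeloid cells, out of 23822 identifiers in the deposited count table. They carry symbols beginning with Cd and a digit, Clec, Tlr and a digit, Fc receptor prefixes, Siglec, Ms4a, Lilr, Trem or Slamf. No gene beginning with Lair or Pilr was among them, and 7 further genes that match the name pattern were left out by name. The members were chosen by their change between genotypes: a symbol was available only for the 3314 identifiers in the parts of the study's 4 gene tables used here, and those parts are ordered by FDR. Of the 78 members, 54 were listed for P56 males, 59 for P56 females, 50 for P21 males and 63 for P21 females. At the edge of the P56 male list, the listed member of lowest rank was Cd163 (log2 fold change 2.56, rank 3025 of 15097 genes here), and the member of highest rank outside it was Cd1d1 (1.38, rank 1214). A comparison that listed a gene is therefore only a description of that gene. An FDR is printed for a gene at P56 only where a P21 table listed it (66 members), and at P21 only where a P56 table listed it (60 members), since those are different rats.

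The rats were Crl:CD(SD) Sprague Dawley rats, either heterozygous for the R237H missense mutation of Gfap (Gfap+/R237H, here R237H) or their Gfap+/+ littermates (WT), and the R237H line is a model of Alexander disease, a disorder of astrocytes. Hippocampi came from 4 R237H and 4 WT males at P21, 5 R237H and 3 WT females at P21, and, for either sex, from 4 R237H and 4 WT animals at P56, where P21 and P56 are ages in days (21 and 56). Adjoining white matter was cut off the hippocampi. The allele was inherited, so every R237H rat carried it at both ages. Since each age was a collection of its own, effects of age and of collection cannot be told apart.

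Microglia, the resident macrophages of the brain, read their surroundings through these proteins. Activating Fc, TREM and C-type lectin receptors signal through adaptors with an ITAM motif, such as the Fc receptor gamma chain and DAP12. Inhibitory Siglecs, CD300 and LILRB receptors carry ITIM motifs that recruit phosphatases. Toll-like receptors detect microbial and endogenous ligands at the surface (lipopeptides, flagellin) or in endosomes (nucleic acids). Tetraspanins organise membrane domains, and several MS4A proteins are expressed in macrophages.

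Depth, as the summed expected counts of a library, was between 21580397 and 55544871 (median 46157271), and 2 R237H male libraries, replicate 4 at P56 and replicate 3 at P21, lay under 30000000. Gfap, the mutated gene, was 2.53 ± 0.08 (log2 fold change ± SE, n = 4 and 4) higher in R237H males at P21, 2.89 ± 0.16 (n = 5 and 3) in females at P21, 2.85 ± 0.22 and 2.89 ± 0.14 (n = 4 and 4 each) in males and females at P56, with no overlap of genotypes. Marker lists were summed as TPM, a value per gene length and library, over the genes with a symbol. These were 14 of 16 microglia, 5 of 7 border macrophage and 4 of 12 monocyte and neutrophil markers. A symbol depended on the genotype tables, so the sums describe a selected set. The summed level of 14 microglia markers was 245 to 437 TPM in WT rats, 866 to 1510 TPM in R237H rats at P21 and 2100 to 3540 TPM in R237H rats at P56. Sums of 5 border macrophage markers, Cd163 among them, were 3.03 to 12 TPM in WT and 20.9 to 65.3 TPM in R237H rats, and those of 4 monocyte and neutrophil markers 3.79 to 8.31 and 29.3 to 229 TPM. Red cell genes were lower in R237H rats at P56 (74.0 to 145 TPM against 349 to 1793 TPM in WT rats). Choroid plexus genes exceeded 100 TPM in 6 rats, which were WT male P56 replicate 2 (6360 TPM), R237H male P56 replicate 4 (813 TPM), R237H female P56 replicate 4 (1740 TPM), WT male P21 replicate 1 (1060 TPM), WT female P21 replicate 3 (3560 TPM) and R237H female P21 replicate 2 (131 TPM). The part of these cell types and libraries in the members' values was not tested, and in bulk tissue more cells of a type and more RNA per cell cannot be told apart. TPM of all genes shifted between genotypes at P56 (median log2 difference 0.40 in males and 0.26 in females, against -0.01 and -0.03 on the TMM scale). Members are therefore given in each rat as CPM, read counts per library size, scaled by TMM factors over all 32 rats. For members, TPM is used only to compare genes within WT rats. The marker sums and the values of Cldn11, Cd6 and Cd22 are in TPM, so between genotypes at P56 they hold the shift of TPM.

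**Figure D1:**
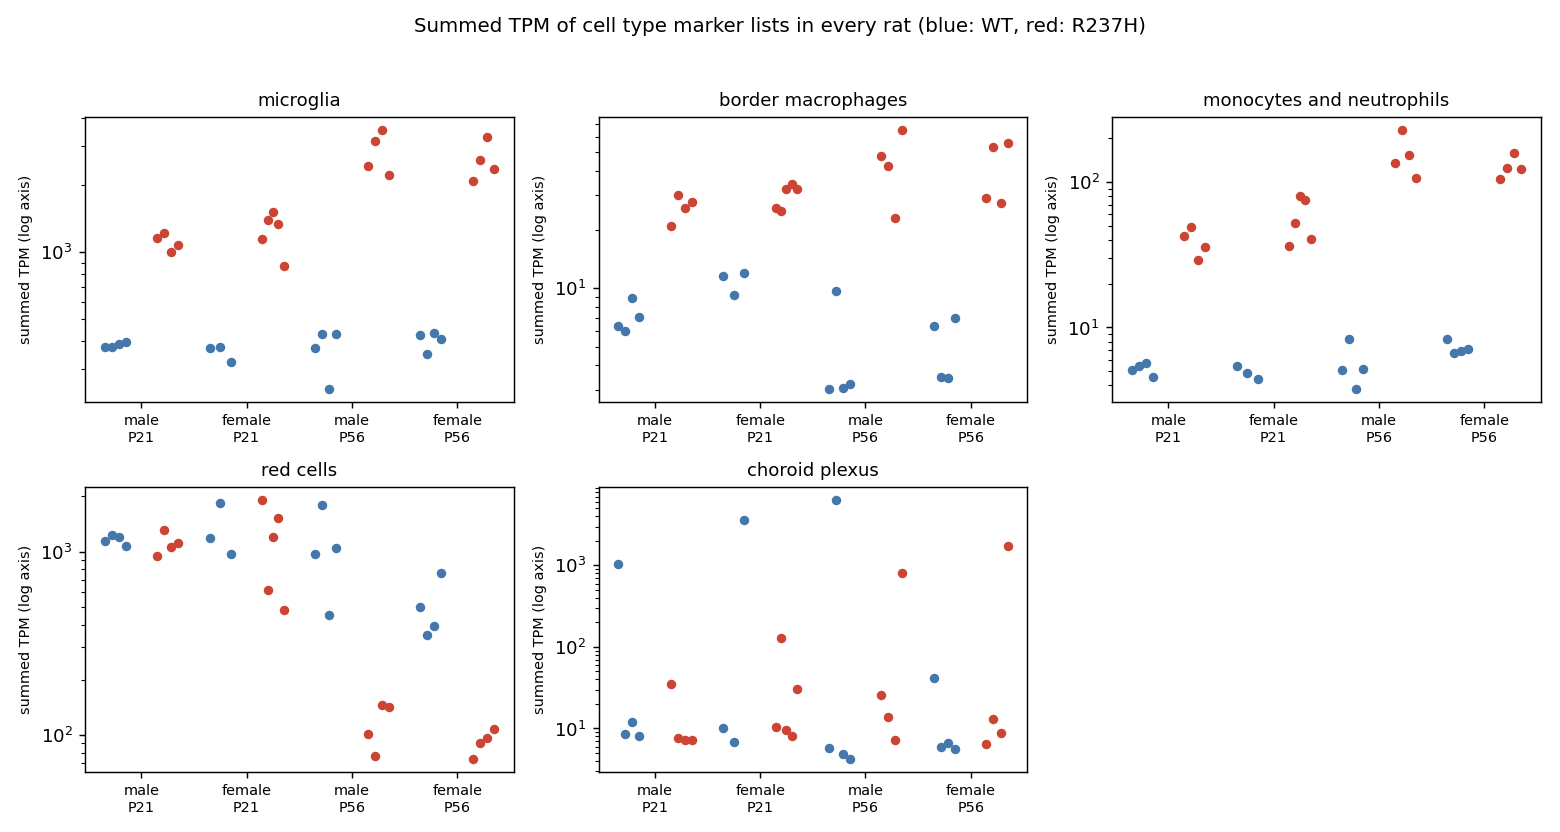
Summed TPM (log axis) of 5 cell type marker lists in every rat, one point per rat, with WT in blue and R237H in red. Only markers with a symbol, which the genotype tables gave, were summed. Microglia, border macrophage and monocyte lists sit higher in every R237H rat than in every WT rat (microglia 866 to 3540 against 245 to 437 TPM), red cell genes sit lower in R237H rats at P56, and choroid plexus genes are high in single rats of both genotypes.

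Nearly all members were higher in R237H rats, a direction that their selection favours wherever it used the same contrast. At P56, 75 of 77 members tested had a positive log2 fold change in males and 73 of 77 in females, with medians of 2.56 and 2.49. At P21 68 of 69 were positive in males and 68 of 70 in females, with medians of 1.42 and 1.71. The median over all genes tested lay between -0.03 and -0.01 in each comparison. Among the members that other rats had listed, 52 of 66 were increased in males at P56 and 53 of 66 in females (edgeR quasi-likelihood test, FDR under 0.01). Of all genes tested, 16.8% and 17.0% were increased. The other rats had listed these members by the same genotype contrast at the other age, a choice that favours a call here. The distance from all genes is therefore not read as a trait of receptors. At P21, 43 of 60 were increased in males and 42 of 60 in females, against 12.4% and 7.06% of all genes. In each sex, 7 of the 60 had too few counts to be tested. The same shares of all genes apply to the counts by class below, which the same choice favours. The female count at P21 fell to 28 without WT replicate 1 or 2. None was decreased in any of the 4 comparisons, where 4.82% of all genes fell in males at P21, 0.753% in females at P21 and 11.1% in each sex at P56. At an unadjusted p under 0.05 the number lower in R237H rats was 0 in each sex at P21 and 2 in each sex at P56. No share of all genes at this unadjusted threshold is given here, so these numbers are a description. DESeq2 and edgeR's likelihood-ratio test each counted 1 decreased member, Siglec5, in P56 females and 0 elsewhere. The members' log2 fold changes can be read beside the 14 microglia markers, whose medians were 1.56 and 1.88 (males, females) at P21 and 2.35 and 2.14 at P56. At P56, 45 of 77 members in males and 46 of 77 in females lay above the marker median, and 23 and 19 above the highest marker. At P21 these numbers were 28 of 69 and 30 of 70, and 5 and 7. Members and markers both have symbols only because a genotype table listed them, and 12 members were listed at P56 only. The members tested also differ between ages, so these counts are a description and no shift between ages is read from them.

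**Figure D2:**
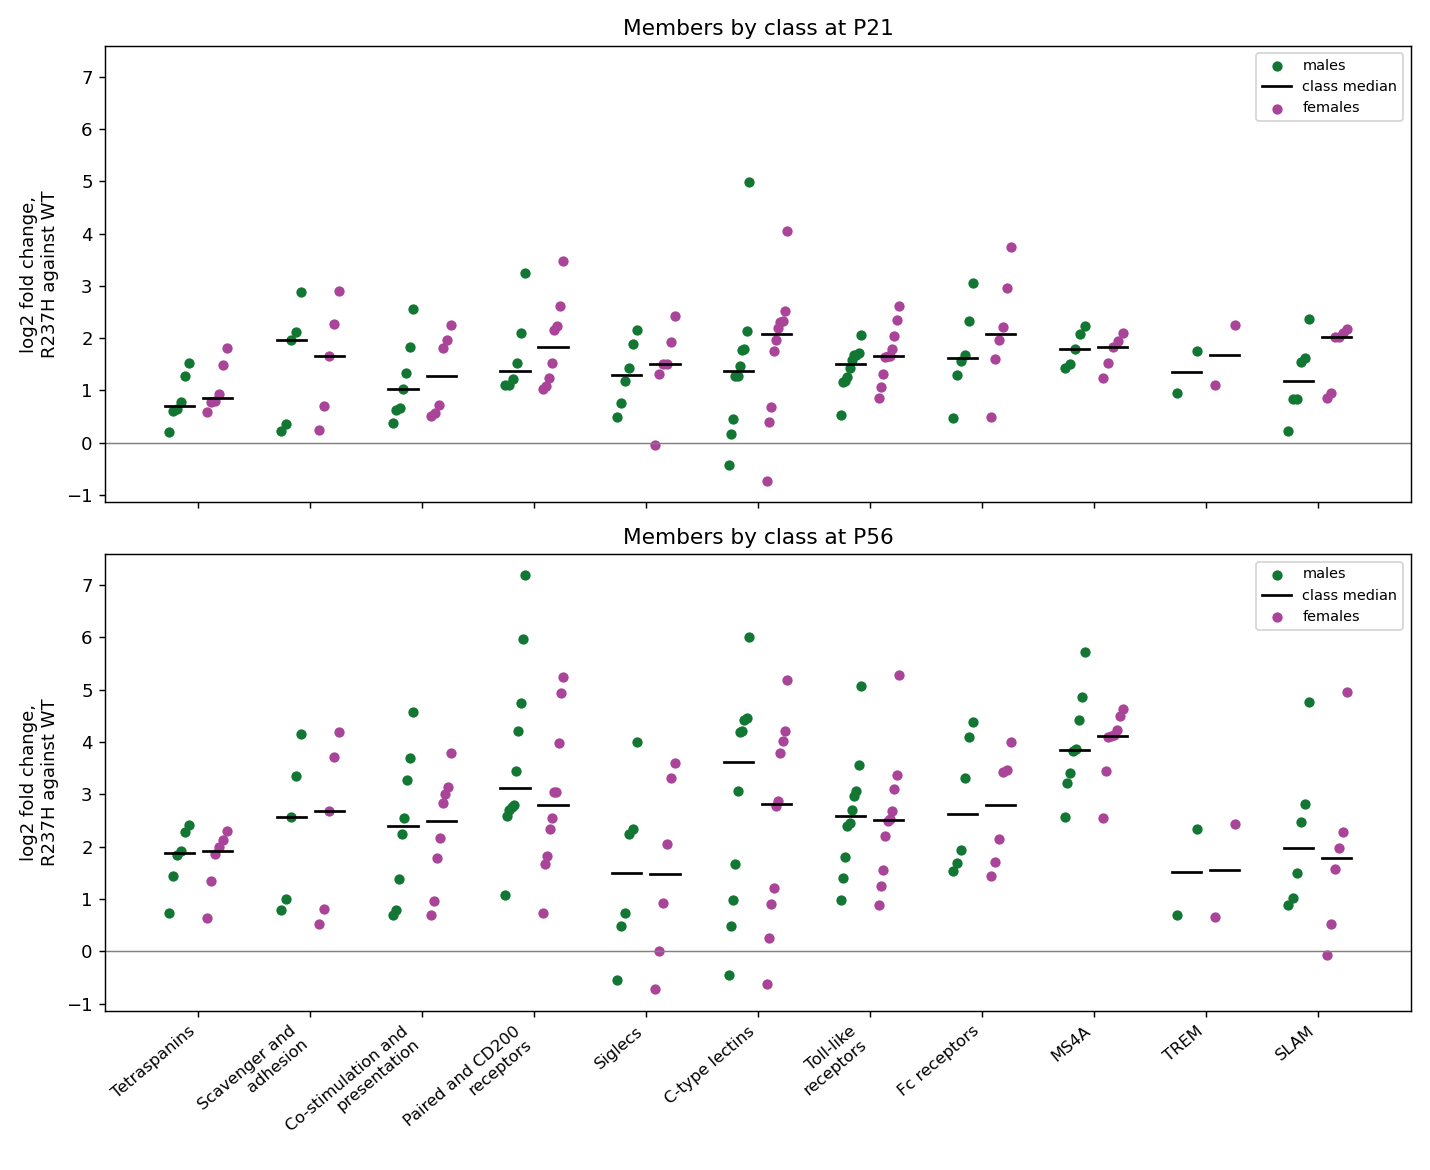
Log2 fold change of R237H against WT for each tested member, in 11 classes at P21 (top) and P56 (bottom), with males in green, females in purple and black bars for class medians. Most points lie above 0 at both ages. MS4A medians at P56 (3.84 in males, 4.13 in females) are the highest of the classes, and Clec14a and Siglec5 are among the few points below 0. The highest male point at P56 is Cd200r1l, which had 0 counts in all WT males, so its height depends on the prior count and is no bound.

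Promoters of the members were read from RefSeq (build GRCr8), as the 250 bases before each start, for 62 of 78 members (73 windows). The letters of a PU.1 site, GAGGAAGT, on either strand were present for 9 of 62 members (14.5%) and for 2.20% of 27457 genes. A composite of PU.1 and an interferon regulatory factor, GGAA and GAAA with 2 bases between them, was present for 6 members (9.68%, against 2.68%), and only Lilrb2 held both, which can overlap. PU.1 is the transcription factor that defines the myeloid lineage. The interferon response element, GAAA repeated with 2 bases between, was found for 7 members (11.3%, against 3.61%), the AP-1 site TGACTCA for 6 (9.68%, against 4.42%), the NF-kB site, GGG and TTTCC with 2 bases between, for 2 (3.23%, against 1.37%) and the E-box TCACGTG for 2 (3.23%, against 3.13%). These are matches of letters, and binding was not measured. The PU.1 letters were in the windows of Cd53, Cd37, Fcgr3a, Ms4a6a, Lilrb2, Ms4a12, Treml2, Cd300lf and Slamf9. The 4 windows shown carry them for members of 3 classes described below, with the match in capitals. They lie at chr2:197087897-197088146 (minus strand) for Cd53, chr1:104860785-104861034 (minus) for Cd37, chr13:85782386-85782635 (plus) for Fcgr3a and chr1:217839574-217839823 (minus) for Ms4a6a, and each is written 5′ to 3′ on the strand of its gene and ends at the base before the start.
Cd53: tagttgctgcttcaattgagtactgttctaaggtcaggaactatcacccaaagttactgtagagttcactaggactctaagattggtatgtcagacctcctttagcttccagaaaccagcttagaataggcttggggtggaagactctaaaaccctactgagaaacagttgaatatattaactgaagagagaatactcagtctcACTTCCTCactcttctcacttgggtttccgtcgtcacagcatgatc
Cd37: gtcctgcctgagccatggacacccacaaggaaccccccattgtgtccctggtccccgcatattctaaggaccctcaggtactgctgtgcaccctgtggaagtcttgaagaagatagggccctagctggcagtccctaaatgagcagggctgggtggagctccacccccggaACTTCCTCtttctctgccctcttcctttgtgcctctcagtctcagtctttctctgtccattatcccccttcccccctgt
Fcgr3a: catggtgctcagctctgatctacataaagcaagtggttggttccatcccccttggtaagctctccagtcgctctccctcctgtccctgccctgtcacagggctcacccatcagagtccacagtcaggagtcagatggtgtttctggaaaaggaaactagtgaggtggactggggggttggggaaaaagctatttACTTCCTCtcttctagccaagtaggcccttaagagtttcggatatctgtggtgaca
Ms4a6a: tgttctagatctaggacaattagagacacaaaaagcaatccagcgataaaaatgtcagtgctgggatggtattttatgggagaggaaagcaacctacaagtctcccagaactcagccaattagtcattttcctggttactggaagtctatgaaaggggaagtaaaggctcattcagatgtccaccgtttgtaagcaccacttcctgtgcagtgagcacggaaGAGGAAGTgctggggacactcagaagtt

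The composite letters were in the windows of Clec7a, Clec4a1, Clec4a3, Cd68, Tlr5 and Lilrb2. Both C-type lectins shown here are among the members that differed most between ages, and lie at chr4:164599828-164600077 (minus strand) and chr4:157845561-157845810 (plus strand). Capitals mark the match, which is on the opposite strand in both.
Clec7a: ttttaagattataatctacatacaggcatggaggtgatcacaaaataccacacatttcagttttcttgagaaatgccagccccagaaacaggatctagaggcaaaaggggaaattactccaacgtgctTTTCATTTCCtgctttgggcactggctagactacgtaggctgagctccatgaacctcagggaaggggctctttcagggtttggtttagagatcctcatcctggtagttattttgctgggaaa
Clec4a1: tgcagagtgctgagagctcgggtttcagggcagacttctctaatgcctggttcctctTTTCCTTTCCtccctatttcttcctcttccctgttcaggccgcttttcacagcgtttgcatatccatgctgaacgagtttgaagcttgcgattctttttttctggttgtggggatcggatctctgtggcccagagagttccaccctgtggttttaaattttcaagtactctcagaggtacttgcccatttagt

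The tetraspanins Cd9 and Cd63 were the most abundant members in WT rats. Cd9, a tetraspanin of adhesion and myelin membranes, was at 156 ± 19.3 TPM (mean ± SD, n = 7) in WT rats at P21 and 89.6 ± 18.1 TPM (n = 8) at P56, and Cd63, of late endosomes and lysosomes, at 101 ± 7.56 and 104 ± 32.3 TPM. All 6 rose at P56 in both sexes, with log2 fold changes of 0.64 to 2.42. At P56 Cd9 measured 62.3, 74, 65.3 and 62.5 CPM in WT males and 242, 242, 190 and 262 CPM in R237H males. In females the values were 66.5, 52.2, 65 and 51.4 CPM in WT and 247, 243, 182 and 264 CPM in R237H rats. Every R237H rat was above every WT rat at P56, by 1.85 ± 0.12 (log2 fold change ± SE, n = 4 and 4, FDR 3.17e-06) in males and 1.99 ± 0.14 (FDR 2.6e-06) in females. At P21 the genotypes were close, with 112, 112, 95.1 and 103 CPM in WT and 130, 128, 115 and 113 CPM in R237H males (0.21 ± 0.07, FDR 0.0425, not past the threshold). P21 females measured 79.7, 86.1 and 90.7 CPM in WT and 116, 136, 138, 131 and 119 CPM in R237H rats (0.59 ± 0.09, n = 5 and 3, FDR 0.00193), and this call was lost without WT replicate 1 (0.54) or 2 (0.60), or without the rats with choroid plexus RNA (0.59). Cldn11, a tight junction gene of oligodendrocytes, whose membranes also hold Cd9, was higher in the same rats at P56. It was the 1 gene of the oligodendrocyte marker list with a symbol, which the genotype tables gave. Its level at P56 was 54.9 to 152 TPM in WT and 279 to 364 TPM in R237H rats, against 164 to 285 and 134 to 288 TPM at P21, and the part of oligodendrocyte RNA in the Cd9 values was not tested. Cd63 was 42.5, 61.3, 34 and 48.4 CPM in WT and 171, 158, 131 and 228 CPM in R237H males at P56 (1.91 ± 0.21, FDR 8.19e-05). Its P56 females measured 49.7, 31.8, 44.9 and 53.6 CPM in WT and 121, 170, 148 and 219 CPM in R237H rats (1.86 ± 0.20, FDR 5.25e-05), and genotypes did not overlap in either sex or at P21 (0.78 ± 0.09 in males, FDR 3.72e-05, and 0.94 ± 0.13 in females, FDR 0.0007). Cd151, a partner of laminin-binding integrins, rose by 1.43 and 1.34 (males, females) at P56, and the leukocyte tetraspanins Cd53 and Cd37 by 2.42 and 2.13, and by 2.28 and 2.30. Cd82 rose by 0.74 and 0.64, and missed the threshold when any 1 of 2 males (0.63 and 0.70) or of 4 females (0.54 to 0.63) was left out.

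**Figure D3:**
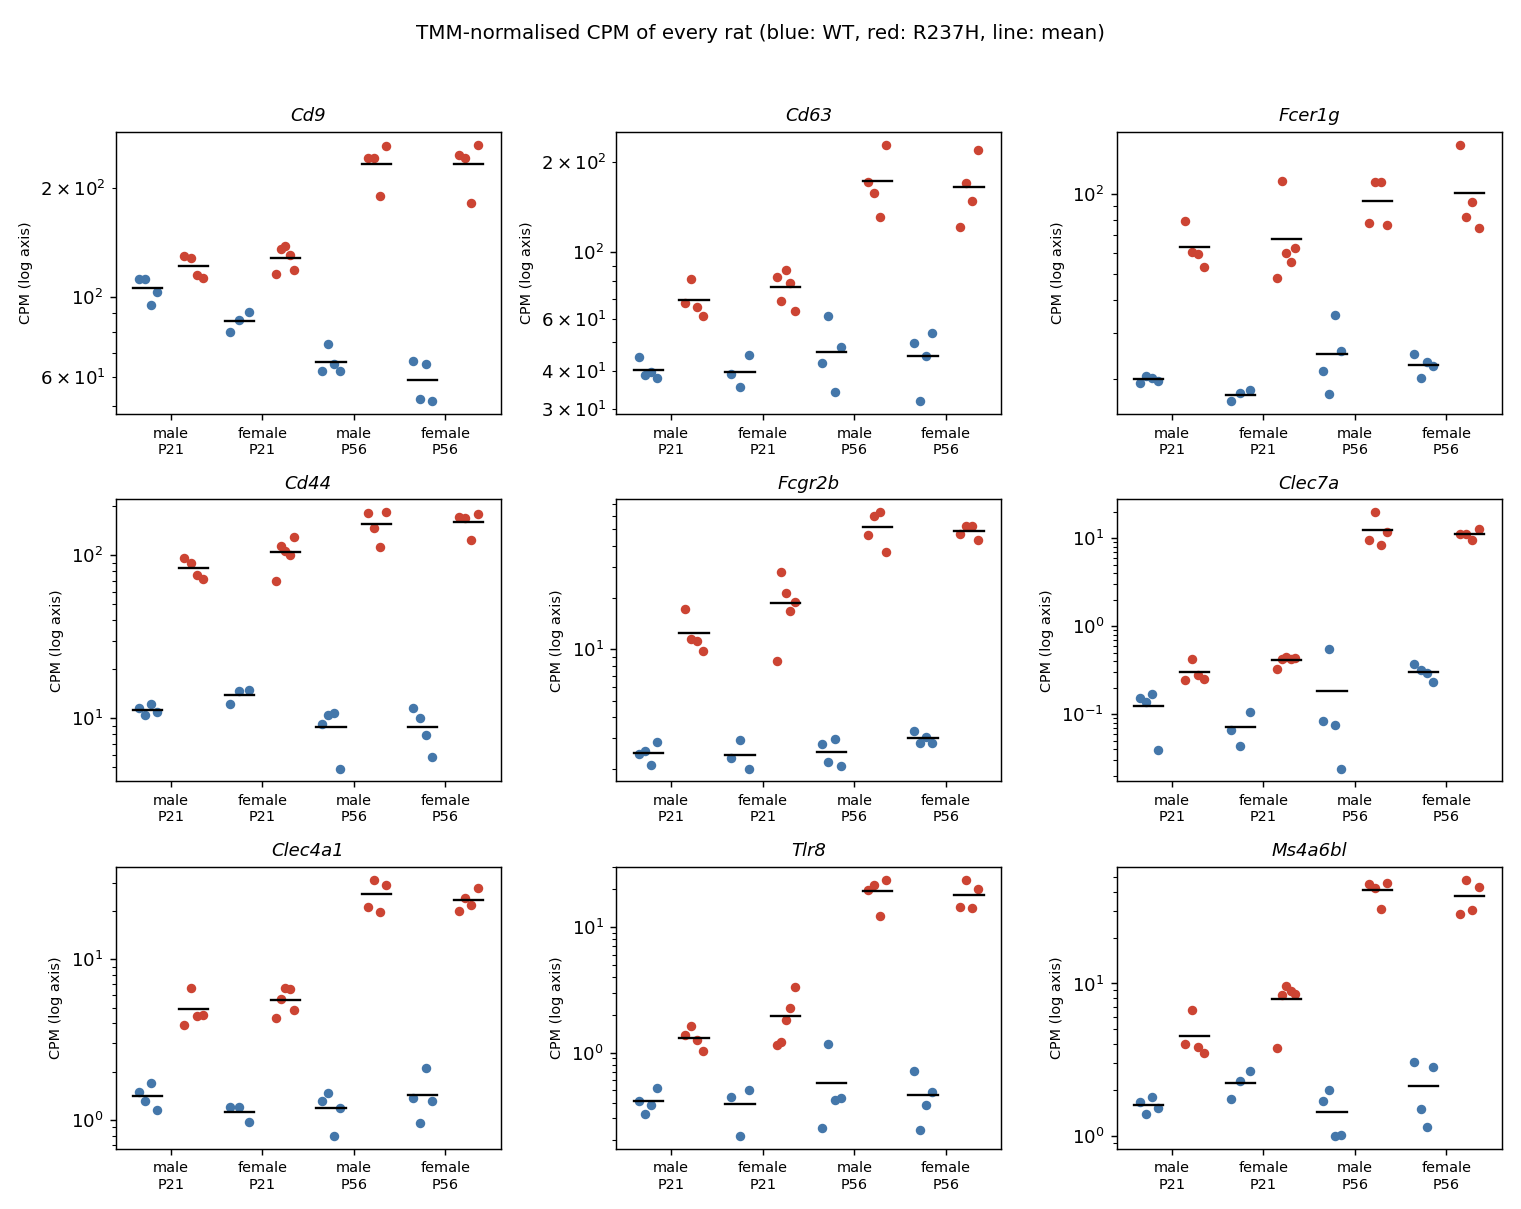
CPM (log axis) of 9 members in every rat, one point per rat, with WT in blue, R237H in red and black lines for means. R237H rats lie above WT rats at P56 for all 9 (Clec7a 8.46 to 19.8 against 0.024 to 0.544 CPM), while at P21 the distance is smaller for Cd9, Clec7a, Tlr8 and Ms4a6bl.

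Among scavenger and adhesion molecules, Cd44 had the largest change in each sex at both ages. It encodes the hyaluronan receptor, which reactive astrocytes express as well as myeloid cells. At P21 it was 11.5, 10.5, 12.3 and 11 CPM in WT males and 96.3, 89.2, 75.5 and 71.5 CPM in R237H males. At P56 WT males measured 9.26, 10.5, 10.8 and 4.92 CPM and R237H males 182, 147, 113 and 184 CPM. Genotypes were far apart in both, by 2.88 ± 0.10 at P21 (FDR 3.19e-09) and 4.16 ± 0.27 at P56 (FDR 3.17e-06), and females changed by 2.90 ± 0.19 (FDR 6.66e-06) and 4.19 ± 0.22 (FDR 4.26e-07). Cd164, a sialomucin and the most abundant gene of this class, was 100, 110, 97.5 and 86.9 CPM in WT and 162, 170, 153 and 178 CPM in R237H males at P56, and 113, 96.7, 91.9 and 120 CPM (WT) and 139, 162, 141 and 164 CPM (R237H) in females. It was listed by the P56 male table alone, so its P56 values (0.78 ± 0.10, 0.52 ± 0.11) carry no test. At P21 its rats overlapped, and 0.23 ± 0.09 in males (FDR 0.0788) and 0.25 ± 0.09 in females (FDR 0.0987) did not pass. Cd68, the lysosomal glycoprotein of macrophages and microglia, was 1.04, 2.16, 1.61 and 1.32 CPM in WT and 11.9, 21.5, 13.6 and 15.5 CPM in R237H males at P56 (3.36 ± 0.27, FDR 1.07e-05). Cd163, the haemoglobin-haptoglobin scavenger receptor of macrophages outside the parenchyma, was 0.71, 3.9, 0.969 and 1.08 CPM in WT males at P56, where the high rat is replicate 2, the one with choroid plexus RNA. R237H males measured 9.98, 8.5, 6.62 and 14.2 CPM (2.56 ± 0.52, FDR 0.00309), and the call was lost without R237H replicate 4 (2.33). The change was 3.44 without WT replicate 2 and 3.22 without the rats with choroid plexus RNA. Cd109, a GPI-anchored protein, rose by 1.0 ± 0.21 in P56 males (FDR 0.00362) and was 0.81 ± 0.26 (FDR 0.0283) in females, which did not pass.

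Fc receptors bind the constant part of antibodies. All 6 members rose in both sexes at P56, all 6 in males at P21 and 5 of 6 in P21 females, with class medians of 1.62 and 2.08 (males, females) at P21 and 2.63 and 2.79 at P56. Fcer1g, the signalling gamma chain shared by activating Fc receptors, was the most abundant, at 30.8 ± 4.35 TPM in WT rats at P21 and 34.9 ± 3.99 TPM at P56. It was 21.5, 17.5, 35.1 and 25.6 CPM in WT and 77.6, 111, 111 and 76.7 CPM in R237H males at P56, and 25, 20.2, 23.2 and 22.4 CPM (WT) and 154, 82.1, 93.3 and 74.5 CPM (R237H) in females. At P21 the males measured 19.4, 20.5, 20.2 and 19.7 CPM in WT and 79.1, 60.7, 59.4 and 53.2 CPM in R237H rats, and the females 16.5, 17.7 and 18.2 CPM (WT) and 48.4, 112, 60.2, 55.7 and 62.5 CPM (R237H). Each R237H rat lay above each WT rat of its sex and age. Log2 fold changes in males were 1.67 ± 0.11 (FDR 2.68e-07) at P21 and 1.94 ± 0.22 (FDR 8.42e-05) at P56. Fcgr2b, the inhibitory low-affinity receptor, was 2.43, 2.54, 2.09 and 2.85 CPM in WT and 17.1, 11.5, 11.2 and 9.79 CPM in R237H males at P21, and 2.78, 2.18, 2.96 and 2.07 CPM (WT) and 46.6, 59.7, 63.1 and 36.8 CPM (R237H) at P56. Its log2 fold change was 2.33 ± 0.17 at P21 (FDR 1.11e-06) and 4.39 ± 0.21 at P56 (FDR 8.22e-07). Fcgr3a, the activating low-affinity receptor whose promoter is shown above, was 1.46, 1.67, 1.08 and 1.28 CPM in WT and 12, 12, 10.8 and 10.4 CPM in R237H males at P21, and 1.38, 1.61, 1.86 and 2.14 CPM (WT) and 24.2, 36.7, 30 and 25.8 CPM (R237H) at P56 (3.05 ± 0.13 and 4.09 ± 0.19, FDR 1.48e-08 and 7.8e-07). In females it changed by 3.75 ± 0.23 (FDR 4.85e-06) at P21 and 3.46 ± 0.19 (FDR 5.61e-07) at P56. Fcgr1a, the high-affinity receptor, rose by 1.57 and 2.21 (males, females) at P21 and by 3.32 and 3.43 at P56. Fcgr2a-ps1, named as a pseudogene, was 15.3, 12.1, 16.7 and 23.6 CPM in WT and 51.2, 49.2, 65.6 and 46.9 CPM in R237H males at P56 (1.69 ± 0.19, FDR 8.8e-05). It may share reads with Fcgr2b and Fcgr3a, so the split between these 3 is uncertain. Fcgrt, the neonatal Fc receptor that recycles IgG and albumin, had the smallest changes of the class, 0.47 ± 0.07 (FDR 0.000468) in males at P21 and 0.50 ± 0.19 in females (FDR 0.118, not past the threshold), and 1.53 ± 0.24 and 1.43 ± 0.24 at P56 (FDR 0.000613 and 0.000971).

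C-type lectins spread most widely. Of the 9 members that P21 tables listed, 5 rose in each sex at P56, and of the 7 that P56 tables listed, 3 rose in males and 5 in females at P21. Clec7a, or dectin-1, the beta-glucan receptor that marks activated microglia, was 0.0836, 0.544, 0.0745 and 0.024 CPM in WT and 9.45, 19.8, 8.46 and 11.9 CPM in R237H males at P56. The females of that age measured 0.369, 0.318, 0.292 and 0.232 CPM in WT and 11.1, 11.3, 9.5 and 12.6 CPM in R237H rats. WT and R237H rats were separate, by 6.01 ± 0.66 (FDR 7.56e-05) and 5.18 ± 0.19 (FDR 1.32e-07), and the highest WT male was again replicate 2. The male change was 7.62 without that rat and 7.64 without the rats with choroid plexus RNA. At P21 it was under 0.5 CPM in all rats, with 0.152, 0.139, 0.169 and 0.0387 CPM in WT and 0.246, 0.422, 0.278 and 0.252 CPM in R237H males (1.28 ± 0.42, FDR 0.0384, not past the threshold), and it rose by 2.51 ± 0.39 (FDR 0.00143) in females, a call lost without WT replicate 1 (2.48) or 2 (2.25). Clec4a1, a paralog of the inhibitory lectin Clec4a, was 1.5, 1.32, 1.69 and 1.16 CPM in WT and 3.92, 6.63, 4.45 and 4.5 CPM in R237H males at P21, and 1.32, 1.48, 0.795 and 1.18 CPM (WT) and 21.1, 31.3, 19.7 and 29.1 CPM (R237H) at P56. Its change was 1.79 ± 0.19 (FDR 2.04e-05) and 4.42 ± 0.24 (FDR 1.13e-06). Clec4a3 had P56 values of 4.22 ± 0.21 (FDR 8.71e-07) and 3.80 ± 0.32 (FDR 8.31e-06), and Clec4a 4.19 ± 0.44 (FDR 5.55e-05) and 2.77 ± 0.25 (FDR 1.22e-05). Clec4a2 had a mean of 8.34 counts per rat over all 32 rats, was listed at P56 alone and was too low to be tested at P21. These 4 paralogs can share reads. Clec10a, the macrophage galactose lectin, rose by 2.14 and 1.97 at P21 and 3.06 and 2.88 at P56.

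Clec2g and Cd302 were the most abundant C-type lectins in WT rats. Clec2g was 21.3, 33.9, 19.4 and 13.8 CPM in WT and 59.4, 73.9, 65.2 and 77.4 CPM in R237H males at P56, a difference that carries no test because it was listed at P56 alone (1.66 ± 0.24), whereas at P21 it was 23.4, 20.9, 22 and 22.2 CPM (WT) and 22.8, 30.2, 23 and 22.3 CPM (R237H) (0.16 ± 0.10, FDR 0.254). Cd302, a lectin of myeloid cells, was 10.9, 15.1, 12.8 and 12.9 CPM in WT and 15, 19.2, 19.5 and 17.2 CPM in R237H males at P56 and 14.8, 15.6, 12.2 and 14.3 CPM (WT) and 16.6, 18.1, 17.7 and 15.4 CPM (R237H) in females. Genotypes overlapped in both, and 0.48 ± 0.14 (FDR 0.0181) and 0.25 ± 0.11 (FDR 0.0862) did not pass. Clec14a, an endothelial protein despite its family name, had negative values in all 4 comparisons. At P56 it was 5.24, 5.45, 6.17 and 9.52 CPM in WT and 4.15, 4.85, 4.29 and 3.92 CPM in R237H females (-0.62 ± 0.20, FDR 0.0308) and -0.46 ± 0.20 (FDR 0.099) in males, neither past the threshold. P21 females, whose table listed it, measured 5.53, 5.37 and 7.51 CPM in WT and 3.72, 3.07, 3.49, 2.97 and 5.11 CPM in R237H rats. Kdr, the 1 gene of the endothelial marker list with a symbol, was also lower in R237H rats, with log2 fold changes of -0.58 and -0.96 (males, females) at P21 and -0.85 and -0.86 at P56. Clec2d, a lectin-related ligand of an NK cell receptor, was highest at P21, with 0, 0.116, 0.0635 and 0.0581 CPM in WT and 1.93, 2.57, 1.67 and 1.56 CPM in R237H males, and 0.104, 0.0971, 0.0497 and 0.024 CPM (WT) and 0.339, 0.279, 0.17 and 0.506 CPM (R237H) at P56. It was listed at P21 alone and had too few counts to be tested at P56. Clec5a, a DAP12-coupled lectin also listed at P21 alone, was 0.99 ± 0.44 (FDR 0.0974) and 0.90 ± 0.43 (FDR 0.119) at P56, not past the threshold.

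Most Toll-like receptors among the members rose at both ages, and family genes that no genotype table listed are not among them. At P56 9 of 10 members were increased in males and 10 of 10 in females, and at P21 all 9 members listed at P56 were increased in both sexes. Class medians were 1.51 and 1.65 (males, females) at P21 and 2.59 and 2.51 at P56. Tlr7, the endosomal single-stranded RNA receptor, was 6.34, 7.15, 7.85 and 6.99 CPM in WT and 17.1, 23.7, 19 and 16.6 CPM in R237H males at P21, and 5.1, 6.04, 7.3 and 4.83 CPM (WT) and 39.1, 53.7, 44.8 and 41.8 CPM (R237H) at P56. The females measured 8.7, 6.11, 4.94 and 8.52 CPM in WT and 43.4, 40.3, 39.6 and 39.8 CPM in R237H rats at P56. Its change was 1.43 ± 0.12 (FDR 2.29e-06) at P21 and 2.97 ± 0.17 (FDR 1.33e-06) at P56 in males, and 2.52 ± 0.17 (FDR 2.32e-06) in P56 females. Tlr8, which neighbours Tlr7 on the X chromosome in RefSeq, was 0.251, 1.17, 0.422 and 0.432 CPM in WT and 19.8, 21.6, 12.3 and 23.4 CPM in R237H males at P56, and 0.715, 0.244, 0.382 and 0.488 CPM (WT) and 14.3, 23.8, 14.1 and 20.1 CPM (R237H) in females. R237H rats stood far above WT rats, by 5.07 ± 0.44 (FDR 1.57e-05) and 5.29 ± 0.31 (FDR 7.55e-07), and the highest WT male was replicate 2, without which the male change was 5.74. At P21 Tlr8 was 0.413, 0.324, 0.381 and 0.523 CPM in WT and 1.37, 1.62, 1.25 and 1.03 CPM in R237H males (1.68 ± 0.23, FDR 0.000173). In P21 females it rose by 2.34 ± 0.44 (FDR 0.00444). This female call was lost without R237H replicate 3 or 4, without any 1 WT rat, or without the rats with choroid plexus RNA (2.05 to 2.66). Cd180, a relative of the endotoxin receptor, was 5.85, 4.97, 6.78 and 5.14 CPM in WT and 14.4, 25, 27.7 and 11.4 CPM in R237H males at P56 (1.81 ± 0.27, FDR 0.00054), and its P21 change was 1.59 ± 0.11 (FDR 6.59e-07). Of the lipopeptide receptors, Tlr1 rose by 3.57 and 3.37 (males, females) at P56, Tlr2 by 2.46 and 2.20 and Tlr6 by 0.98 and 0.88. Tlr1 and Tlr6 are close paralogs that can share reads. The endosomal receptors Tlr9 and Tlr13 rose by 3.07 and 3.11, and by 2.71 and 2.49, and Tlr3, the double-stranded RNA receptor, by 1.41 and 1.25. Tlr5, the flagellin receptor, was the male exception at P56 (2.39 ± 0.64, FDR 0.0125) and rose in females (2.69 ± 0.32, FDR 8.56e-05).

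The members of the MS4A family, membrane proteins with 4 transmembrane segments, were low in WT rats and higher in R237H rats at P56. Class medians were 1.80 and 1.83 (males, females) at P21 and 3.84 and 4.13 at P56, and all 5 members listed at P21 were increased in both sexes at P56. At P21, 5 of the 8 members listed at P56 could be tested, and 4 were increased in males and 3 in females. Ms4a6c did not pass in either sex (2.08 ± 0.55, FDR 0.0141, and 1.94 ± 0.42, FDR 0.0106), nor did Ms4a6b in females (1.24 ± 0.43, FDR 0.0942). The P21 female call of Ms4a4a (1.53 ± 0.26, FDR 0.00249) was lost without WT replicate 1 (1.61) or 2 (1.29). Ms4a6bl was 1.65, 1.39, 1.8 and 1.51 CPM in WT and 3.99, 6.68, 3.85 and 3.5 CPM in R237H males at P21, and 1.69, 1.98, 0.994 and 1.01 CPM (WT) and 45.1, 42.6, 30.9 and 45.5 CPM (R237H) at P56. In females it was 3.05, 1.49, 1.14 and 2.83 CPM in WT and 28.7, 48.2, 30.5 and 43.2 CPM in R237H rats at P56. Genotypes were apart at both ages, by 1.51 ± 0.21 (FDR 0.000178) and 4.86 ± 0.26 (FDR 1.13e-06) in males and 1.83 ± 0.30 (FDR 0.00224) and 4.14 ± 0.32 (FDR 4.8e-06) in females. The P21 female call was lost without WT replicate 1 (1.68) or 2 (1.86), or without the rats with choroid plexus RNA (1.94). Ms4a6a was 1.04, 1.17, 1.96 and 1.83 CPM in WT and 14.5, 18.6, 11.9 and 17.2 CPM in R237H males at P56 (3.41 ± 0.25, FDR 5.43e-06), and 0.782, 1.23, 1.16 and 0.871 CPM (WT) and 4.3, 6.61, 4.36 and 3.7 CPM (R237H) at P21 (2.24 ± 0.22, FDR 9.03e-06). Ms4a4a, of macrophages, rose by 3.83 (3.16 without R237H replicate 4) and 4.24 at P56, Ms4a6b by 2.56 and 2.55, and Ms4a6c by 3.86 and 4.10. Reads may be shared between Ms4a6b, Ms4a6bl and Ms4a6c. Ms4a7, a macrophage gene listed at P56 alone, was 0.0434 to 0.148 CPM in WT and 0.0448 to 0.274 CPM in R237H males at P21, which overlap, and 0.0836, 0.253, 0.0745 and 0.024 CPM (WT) and 2.2, 2.87, 0.917 and 3.94 CPM (R237H) at P56. Ms4a12, also listed at P56 alone, was 0 to 0.0457 CPM in P21 R237H males and 0.272 to 1.01 CPM at P56. With Ms4a14, these were too low to be tested at P21.

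Siglecs, lectins that bind sialic acid, differed among themselves. Cd33 was 6.73, 5.44, 4.7 and 7.95 CPM in WT and 27.2, 32.7, 41.4 and 21.9 CPM in R237H males at P56, and 6.64, 4.62, 6.35 and 7.57 CPM (WT) and 23.4, 26.9, 28.8 and 25.7 CPM (R237H) in females. Its change was 2.34 ± 0.22 (FDR 2.96e-05) and 2.05 ± 0.15 (FDR 4.02e-06), and 1.42 ± 0.10 (FDR 6.56e-07) in P21 males. Siglec5 passed the quasi-likelihood test in neither sex at P56. In P21 males, whose table listed it, it was 7.65, 7.26, 7.36 and 8.5 CPM in WT and 11.5, 12.1, 9.97 and 9.51 CPM in R237H rats. At P56 it was 7.25, 6.9, 7.33 and 10.7 CPM in WT and 4, 4.74, 7.68 and 5.24 CPM in R237H males, and 9.18, 7.23, 7.61 and 6.76 CPM (WT) and 3.19, 5.52, 4.88 and 5.13 CPM (R237H) in females. Males overlapped (-0.54 ± 0.23, FDR 0.0795) and females did not (-0.72 ± 0.18), and the female FDR of 0.0103 lay just above the threshold. Females at P21 were split, at 10.1, 12.8, 4.27, 6.8 and 4.36 CPM in R237H rats against 8.72, 8.84 and 6.37 CPM in WT rats. Siglec8 rose by 4.01 and 3.31 at P56, but 1 R237H female at 0.786 CPM lay near the WT rats (0.449 to 0.72 CPM). Sialoadhesin, Siglec1, rose by 2.25 ± 0.50 (FDR 0.00502) in males and 3.60 ± 0.56 (FDR 0.000555) in females. The DAP12-coupled Siglec15 rose by 0.92 ± 0.15 in P56 females (FDR 0.000846) and was 0.73 ± 0.20 in males (FDR 0.0144). The inhibitory Siglec10 was 0.209 to 0.382 CPM in WT and 0.133 to 0.361 CPM in R237H females at P56, and its genotypes overlapped in males too (0.48 ± 0.49, FDR 0.465).

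**Figure D4:**
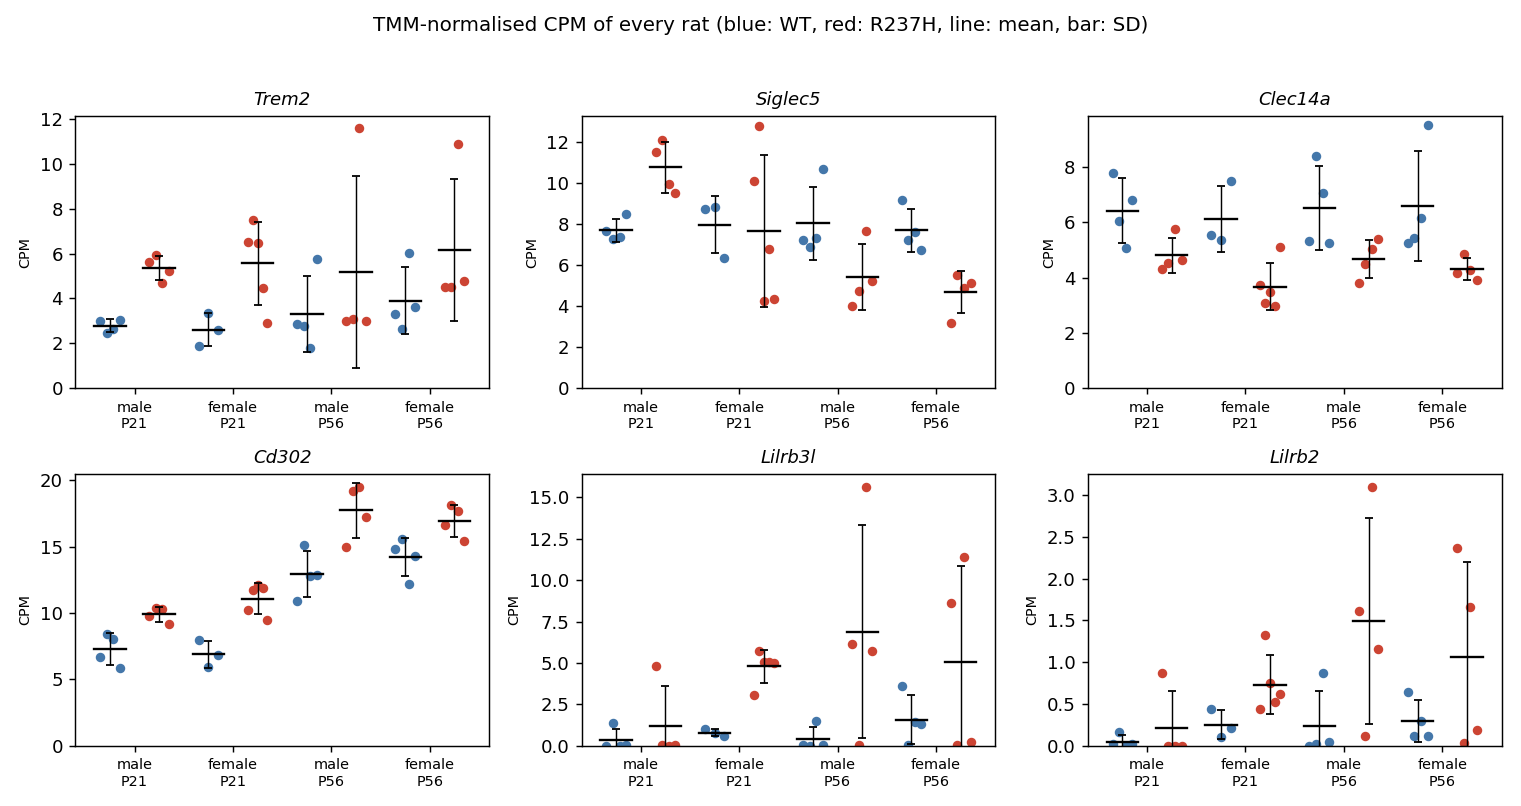
CPM of 6 members that departed from the common pattern, one point per rat (WT blue, R237H red), with lines for means and bars for SD, which are cut at 0. Trem2 is high in 1 R237H rat of each sex at P56 (11.6 and 10.9 CPM), Siglec5 and Clec14a are lower in R237H females at P56, and Lilrb3l and Lilrb2 are near 0 in some rats of both genotypes.

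Paired receptors hold activating and inhibitory members side by side. Lilrb3, an inhibitory leukocyte immunoglobulin-like receptor, was 0.348, 0.301, 0.317 and 0.349 CPM in WT and 4.17, 3.33, 2.55 and 2.45 CPM in R237H males at P21, and 0.606, 0.874, 0.398 and 0.24 CPM (WT) and 30.7, 49.3, 18 and 36.2 CPM (R237H) at P56. Females at P56 measured 0.669, 0.733, 0.561 and 0.534 CPM in WT and 18.3, 31.3, 14.5 and 31.1 CPM in R237H rats. Its changes, 3.25 ± 0.22 (FDR 5.58e-07) and 5.97 ± 0.43 (FDR 5.31e-06) in males and 3.48 ± 0.59 (FDR 0.00258) and 5.24 ± 0.30 (FDR 7.25e-07) in females, were among the largest of all members at both ages. In P21 females the call was lost without WT replicate 1 (3.08) or 2 (3.25), and the change was 4.39 without WT replicate 3 and 4.6 without the rats with choroid plexus RNA. At P56 the genotypes overlapped for its paralog Lilrb3l, at 0.0627, 0, 1.47 and 0.048 CPM in WT and 6.14, 0.0522, 15.6 and 5.75 CPM in R237H males (4.21 ± 1.43, FDR 0.0374) and 3.6, 0.0244, 1.41 and 1.3 CPM (WT) and 8.6, 0.0575, 11.4 and 0.228 CPM (R237H) in females (1.67 ± 1.26, FDR 0.312). Lilrb2 did not pass at P56 either (2.76 ± 1.18 and 1.82 ± 0.99, FDR 0.0866 and 0.162). The CD300 receptors include inhibitory members. Cd300lf was 4.01, 2.41, 3.5 and 5.21 CPM in WT and 6.54, 7.56, 11.1 and 5.68 CPM in R237H males at P56, where 1.07 ± 0.27 passed narrowly (FDR 0.00947). The call was lost when any 1 of 7 of the 8 rats was left out (0.83 to 1.18), with RLE factors (1.03) and without the rats with choroid plexus RNA (1.02). Its P56 females were 3.39, 2.71, 4.47 and 4.83 CPM in WT and 4.84, 6.42, 9.18 and 5.3 CPM in R237H rats (0.74 ± 0.25, FDR 0.0347, not past the threshold). Cd300a, a phospholipid receptor, was 1.44, 1.03, 0.87 and 2.14 CPM in WT and 8.07, 8.17, 7.91 and 7.88 CPM in R237H males at P56 (2.58 ± 0.26, FDR 4.13e-05) and rose by 2.54 ± 0.21 (FDR 6.45e-06) in females. Cd200r1, the inhibitory receptor for the neuronal protein CD200, was 0.434, 0.324, 0.19 and 0.136 CPM in WT and 1.41, 1.2, 1.11 and 0.869 CPM in R237H males at P21, and 0.146, 0.272, 0.248 and 0.192 CPM (WT) and 2.12, 2.84, 2.34 and 2.06 CPM (R237H) at P56. It rose by 2.09 ± 0.32 (FDR 0.000446) and 3.45 ± 0.28 (FDR 1.05e-05). Its paralog Cd200r1l had 0 counts in all 4 WT males at P56 and 0.402, 0.313, 0.408 and 0.434 CPM in R237H males, at least 25.1-fold higher than the level that 3 counts over the WT group would give. Lilra5 and Cd300le, listed at P56 alone, did not pass at P21 (1.10 and 1.21 in males, FDR 0.0585 and 0.012). Cd300c2 was 0 to 0.117 CPM in WT and 0.289 to 0.572 CPM in R237H males at P56 and was too low to be tested at P21.

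Co-stimulatory and antigen-presenting molecules connect myeloid cells with lymphocytes. The B7 ligands of CD28 and CTLA-4 both rose. Cd86 was 0.673, 0.902, 1.04 and 0.407 CPM in WT and 2.15, 1.73, 1.67 and 1.94 CPM in R237H males at P21, and 0.648, 0.777, 0.422 and 0.793 CPM (WT) and 6.12, 6.77, 6.96 and 5.42 CPM (R237H) at P56 (1.33 ± 0.25 and 3.28 ± 0.23, FDR 0.00201 and 4.8e-06). Cd80 rose by 4.58 ± 0.35 (FDR 7.57e-06) and 3.15 ± 0.30 (FDR 1.84e-05) at P56. Cd40, a receptor of the TNF receptor family, rose by 1.02 and 1.82 at P21 and 2.25 and 2.16 at P56. Cd83 and Cd276 were the most abundant genes of the class and had its smallest changes at P56. Cd83, a maturation marker of dendritic cells, was 15.6, 12.4, 12.7 and 16.4 CPM in WT and 23.1, 25.7, 26.8 and 21.4 CPM in R237H males at P56 and 14.8, 14.6, 14.9 and 16.9 CPM (WT) and 19.8, 21.2, 31.5 and 26.5 CPM (R237H) in females, without overlap (0.79 ± 0.12 and 0.69 ± 0.15, FDR 0.000693 and 0.00417). The female call was lost when any 1 of 4 rats (R237H replicate 4, WT replicate 1, 2 or 3) was left out (0.66 to 0.68), and without the rats with choroid plexus RNA (0.66). Cd276, or B7-H3, was 15.3, 16, 20.9 and 18.6 CPM in WT and 28.6, 25.1, 29.4 and 29.2 CPM in R237H males at P56 and 16.5, 16, 17.7 and 16 CPM (WT) and 27.3, 28.5, 24 and 25.4 CPM (R237H) at P21, a change of 0.69 ± 0.12 (FDR 0.00148) and 0.67 ± 0.07 (FDR 2.12e-05). Its change in P56 males (0.63) missed the threshold without the rats with choroid plexus RNA. Cd1d1, which presents lipids, was 0.62 ± 0.20 (FDR 0.04) and 0.56 ± 0.19 (FDR 0.0823) at P21, not past the threshold. Cd7, of T and NK cells, rose in P56 females (3.79 ± 0.85, FDR 0.00482), while males overlapped (0.104, 0.0777, 0.919 and 0.048 CPM in WT and 2.37, 0.505, 0.119 and 3.58 CPM in R237H rats, FDR 0.0883). Cd72, known from B cells, was 0.167, 0.0971, 0.0497 and 0.0721 CPM in WT and 1.5, 0.836, 1.85 and 0.904 CPM in R237H males at P56, was listed at P56 alone and was too low to be tested at P21.

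SLAM receptors bind each other or partners on neighbouring leukocytes. Cd48, the ligand of CD244, was 19.2, 14.8, 24.6 and 19.3 CPM in WT and 53.1, 53.3, 59.6 and 48.1 CPM in R237H males at P56, and 19.4, 17, 15.6 and 15.5 CPM (WT) and 29, 33.7, 28.4 and 28.2 CPM (R237H) at P21. The genotypes were separate by 1.49 ± 0.15 (FDR 3.55e-05) and 0.83 ± 0.09 (FDR 2.28e-05). Its receptor Cd244 did not pass at P56 (0.88 ± 0.42 and 0.53 ± 0.36, FDR 0.114 and 0.259). Cd84 was 1.57, 1.94, 2.58 and 1.42 CPM in WT and 11.7, 15.6, 17 and 7.95 CPM in R237H males at P56 (2.82 ± 0.28, FDR 4.03e-05), and 2, 1.9, 2.12 and 1.68 CPM (WT) and 6.74, 6.15, 5.14 and 5.63 CPM (R237H) at P21 (1.63 ± 0.13, FDR 1.43e-06). Slamf8, of macrophages, rose at P21 (2.36 and 2.18) and P56 (2.47 and 1.97). Slamf9 was 0.0627, 0.33, 0.0994 and 0.048 CPM in WT and 3.6, 3.87, 2 and 5.93 CPM in R237H males at P56 (4.77 ± 0.57, FDR 0.000134), and the change was 5.76 without WT replicate 2 and 5.48 without the rats with choroid plexus RNA. Slamf1 did not pass at P56 (1.02 in males, -0.08 in females, FDR 0.0727 and 0.874).

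Of the TREM family, Trem2, the DAP12-coupled lipid receptor of microglia, rested on single rats at P56. At P21, where both tables listed it, it was 3, 2.45, 2.64 and 3.04 CPM in WT and 5.62, 5.92, 4.68 and 5.21 CPM in R237H males, and 1.86, 3.36 and 2.61 CPM (WT) and 6.52, 7.48, 6.47, 4.48 and 2.9 CPM (R237H) in females. At P56 it was 2.88, 2.78, 1.79 and 5.76 CPM in WT and 3.01, 3.06, 11.6 and 3 CPM in R237H males, and 3.32, 2.64, 6.04 and 3.62 CPM (WT) and 4.51, 4.5, 10.9 and 4.77 CPM (R237H) in females. Replicate 3 was high in both R237H groups, the other R237H rats lay within the range of WT rats, and 0.69 ± 0.51 (FDR 0.307) and 0.65 ± 0.35 (FDR 0.154) did not pass. Without that rat the values were -0.09 in males and 0.23 in females. These 2 R237H rats carry the same number in their titles, as do WT male replicate 3 (1.79 CPM) and WT female replicate 3 (6.04 CPM). Treml2 in contrast was 0.815, 0.991, 1.24 and 0.937 CPM in WT and 5.21, 5.54, 5.84 and 3.15 CPM in R237H males at P56 and rose in all 4 comparisons (1.76 ± 0.23 and 2.26 ± 0.29 at P21, 2.34 ± 0.25 and 2.44 ± 0.30 at P56, FDR 0.000116, 0.000431, 5.88e-05 and 0.000116). Tyrobp, the gene of DAP12, was higher by 2.18 and 2.38 at P21 and 2.5 and 2.53 at P56.

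The difference between ages was tested itself, as an interaction of age and genotype within each sex. Of 38 members listed at both ages in males, 19 had a larger genotype effect at P56 and 0 at P21, against 5.81% and 4.31% of all genes tested, and in females 7 and 0 of 47, against 1.49% and 0.658%. None of these members had a larger effect at P21 at an unadjusted p under 0.05, for which no share of all genes is given here. The number was also 0 by DESeq2 and the likelihood-ratio test at the FDR threshold. These same rats had listed the counted members at both ages, a choice that leaves out members listed at P21 alone. Members listed at 1 age only carry no test here. Their differences, P56 minus P21, went in both directions, as with Siglec5 (-1.05 ± 0.25) and Clec2g (1.49 ± 0.27) in males. Counted instead over the members that the other sex had listed at both ages, an alternative chosen after seeing the data, the numbers larger at P56 were 21 of 47 in males and 5 of 38 in females. The male count fell to 11 without R237H replicate 4 at P21. The female count ranged from 1 to 9 when single rats were left out, with 1 without WT replicate 1 at P21, and was 1 (Cd9) without the rats with choroid plexus RNA. The largest in males were Tlr8 (3.38 ± 0.50, as the difference of the log2 fold changes, FDR 0.000296), Ms4a6bl (3.33 ± 0.33, FDR 9.33e-06), Cd80 (2.74 ± 0.44, FDR 0.000476), Clec4a (2.70 ± 0.48, FDR 0.00106), Lilrb3 (2.70 ± 0.51, FDR 0.00178) and Clec4a1 (2.62 ± 0.30, FDR 4.13e-05). Fcgr2b (2.05 ± 0.28, FDR 0.000147), Fcgr1a (1.73 ± 0.24, FDR 0.000157) and Tlr7 (1.52 ± 0.20, FDR 0.00013) also passed. In females Tlr8 (2.95 ± 0.56, FDR 0.00575), Ms4a6bl (2.32 ± 0.45, FDR 0.00609), Clec4a1 (1.72 ± 0.30, FDR 0.00316), Ms4a6a (1.34 ± 0.27, FDR 0.00829) and Tlr13 (1.19 ± 0.25, FDR 0.00936) passed. Cd9 (1.41 ± 0.17) and Clec7a (2.68 ± 0.42) were counted as well, and carry no FDR since the male tables did not list them at both ages. Other members had similar values at both ages. The differences were 0.08 ± 0.31 for Slamf8, 0.21 ± 0.31 for Cd180 and 0.26 ± 0.26 for Fcer1g in males, with FDR of 0.876, 0.668 and 0.503, which does not show that their effects were equal.

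**Figure D5:**
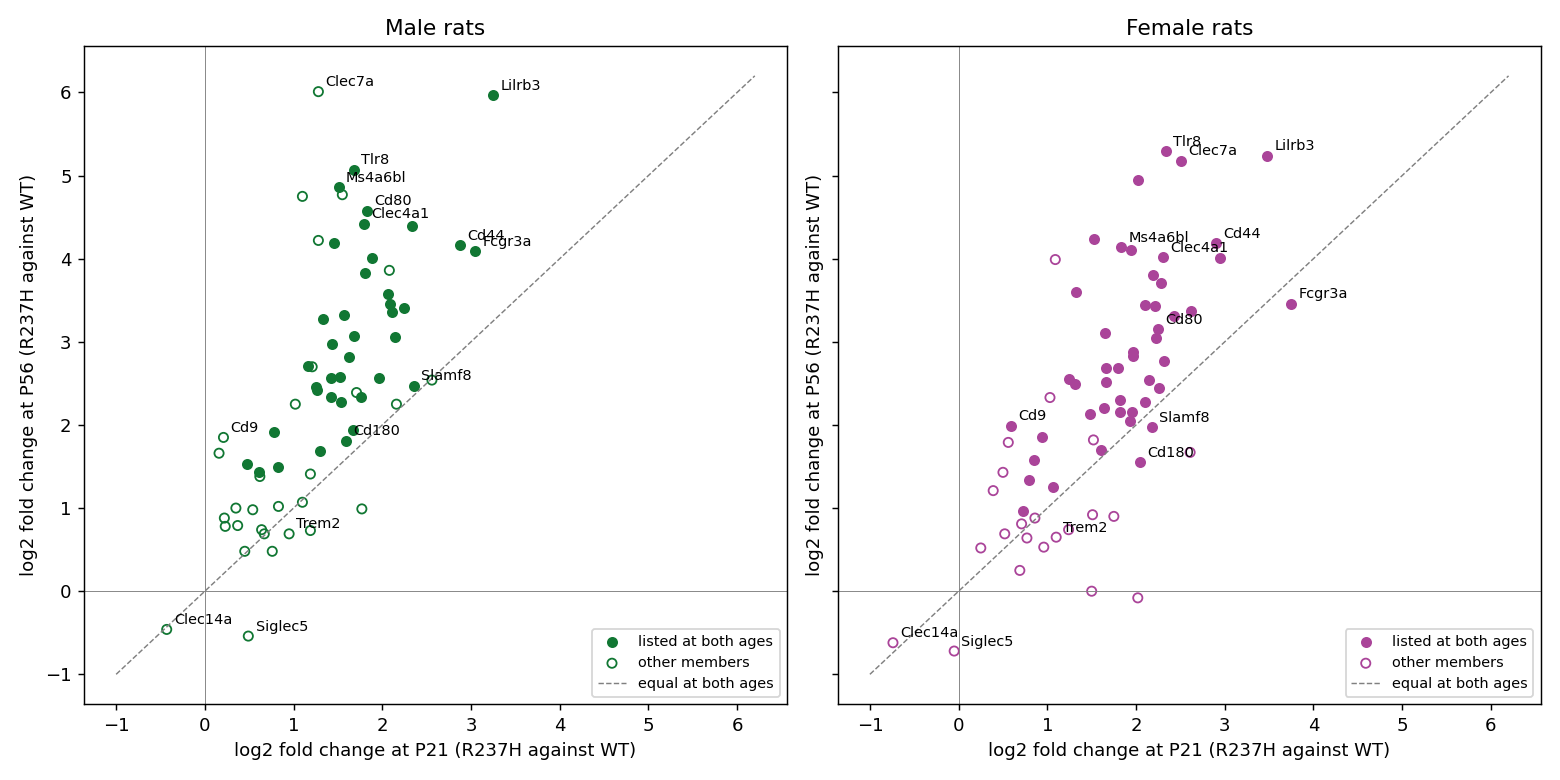
Log2 fold change of R237H against WT at P56 (y) against that at P21 (x) for members tested at both ages, in males (left) and females (right). Filled points were listed at both ages in that sex, open points were not, and the dashed line marks equal effects. Most points lie above the line, with Tlr8, Clec7a and Ms4a6bl far above it, Slamf8 and Cd180 near it, and Clec14a and Siglec5 below 0.

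No difference between the sexes in the genotype effect passed. Members listed in both sexes were kept by the tables of these same rats, a choice that works against finding a difference between the sexes. Of 47 such members at P21 and 53 at P56, the interaction of sex and genotype called 0 in either direction, as it did for 0% of all genes tested. At an unadjusted p under 0.05, 3 members had a larger effect in females and 0 in males at P21, and 0 and 3 at P56. The share of all genes at this unadjusted threshold is not given here, so no lean to either sex is read from these numbers. DESeq2 and the likelihood-ratio test called 0 of these members at either age. Over the members that the other age had listed in both sexes, counted after seeing the data, 0 of 48 tested at P21 and 0 of 47 at P56 were called. All P21 males carried the same number in their titles, and no P21 female carried it. The labels do not say what the number marks, so sex and this number cannot be told apart at P21.

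WT rats of the 2 ages, which also differ in their collection, were compared with sex in the model. Of 69 members tested in the 15 WT rats, 3 were higher at P56 (6.36% of all genes tested) and 2 lower (8.44%), and nothing about the members is read from these counts. The rule did not use this contrast, which shares its WT rats with those that it used. Cd302 rose by 0.90 ± 0.11 (FDR 2.13e-05), Cd82 by 0.66 ± 0.10 (FDR 0.000256) and Cd83 by 0.54 ± 0.08 (FDR 0.000219). The log2 change of Cd9 was -0.64 ± 0.07 (FDR 1.22e-05). That of Cd163 was -1.29 ± 0.33 (FDR 0.00864), with 2.61, 2.75, 4.27 and 3.23 CPM in WT males at P21 and 0.71, 3.9, 0.969 and 1.08 CPM at P56. The number lower fell to 1 when any of 14 rats was left out, and the number higher rose to 6 without WT male P56 replicate 2. Cd9 moved in opposite directions: it was lower at P56 in WT rats, and higher in R237H than in WT rats at that age.

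Genes that carry the signals of these receptors had a symbol only where one of the genotype tables listed them. The counts below are therefore a description of a selected set, with no support drawn from them, and genes without a symbol were not counted. Over all genes tested, 12.4% and 7.06% (males, females) were increased at P21 and 16.8% and 17.0% at P56. Of 24 genes of ITAM and ITIM signalling, 20 had a symbol and 19 and 17 (males, females) were increased at P21 and 20 and 20 at P56. They include the adaptor Tyrobp, the phosphatase Ptpn6 (2.70 in males and 2.49 in females at P56) and the exchange factor Vav1 (3.30 and 3.14). Of 24 genes of Toll-like receptor signalling, 13 had a symbol and 12 and 6 were increased at P21 and 13 and 13 at P56, among them Unc93b1, which delivers Toll-like receptors to endosomes (3.04 and 2.64 at P56), and Irak3, an inhibitor of the pathway (2.14 and 2.03). Of 12 myeloid transcription factors, 10 had a symbol and 8 and 6 were increased at P21 and 7 and 7 at P56. Spi1, the gene of PU.1, was higher by 1.97 and 2.09 at P21 and 2.32 and 2.42 at P56, and Irf8, its partner at composite sites, by 1.85 and 2.20, and 3.26 and 3.00. Of 18 ligands and counter-receptors 5 had a symbol. Spp1, the gene of osteopontin, a ligand of CD44, was higher by 3.99 and 4.49 at P21 and 7.30 and 6.07 at P56, and Thy1, a neuronal surface protein, was lower at P56 (-0.95 and -0.71). Of lymphocyte markers only 1 of 20 for T and NK cells and 1 of 10 for B cells had a symbol, and both were higher in R237H rats without overlap. Cd6, a receptor of T cells, was 0.25 to 1.18 TPM in WT and 1.61 to 7.08 TPM in R237H rats. Cd22, a Siglec known from B cells, was 0.1 to 0.74 TPM in WT and 1.55 to 10.2 TPM in R237H rats. Their part in the members' values was not tested.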

How the data were processed

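Hippocampal poly(A) RNA of 32 rats was sequenced as stranded libraries (TruSeq Stranded mRNA, NovaSeq X Plus). The authors demultiplexed with bcl2fastq (2.20.0.422), trimmed with Skewer, aligned with STAR and deposited RSEM expected counts per gene, which are estimates that need not be whole (5.68% of values were not). The authors also deposited TPM from RSEM, scaled to gene length and library. The genome build, the annotation and the other versions are not given in the sources used here.

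Symbols came from the 4 supplementary gene tables of the study, and their fold changes and p-values were not used. A marker gene is not reported here. The members and the gene lists were chosen with earlier results of these data known. Expected counts were rounded, filtered (filterByExpr), TMM-normalised and tested within sex and age by edgeR's quasi-likelihood test (edgeR 4.0.16, R 4.3.3), with Benjamini-Hochberg adjustment over all genes tested and a threshold of 0.01, in the 16 males or 16 females for age by genotype and in 15 WT rats for age. Scripts were tested on simulated data, and tables and figures used Python 3.11.15, pandas 2.3.3 and matplotlib 3.10.9. Alternatives were DESeq2 1.42.0, edgeR's likelihood-ratio test, RLE factors, other filters, an FDR of 0.05, all rats in one model, a block by the number in the title, log2(TPM + 0.1) and log2(TPM + 1), each rat left out, and 2 chosen after seeing the data: leaving out rats above 100 TPM of choroid plexus genes, and counting members listed by the other sex or age. Each rat is a separate animal. Replicate numbers follow sample order within a group and pair no rats.

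Per-rat values are given for the most abundant member of each class by mean TPM, and the next in classes of 6 or more. Also named were the 5 largest and 3 smallest log2 fold changes of each comparison at a mean of at least 50 counts, members past an interaction or WT age test, members not tested and at most 4 genes of a list by FDR. Other members were chosen after their values were seen. Promoter windows, 250 bases before the start, came from RefSeq (GRCr8) and were matched by symbol.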

Additional observations from a re-analysis of the deposited data

Results flagged for a closer look

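In 13 of 140 groups of rats tested, 1 rat stood apart from its group by Dixon's criterion, which chance alone meets in about 5% of groups. Trem2 was 11.6 CPM in R237H male P56 replicate 3 (the others 3.0 to 3.06 CPM) and 10.9 CPM in R237H female P56 replicate 3 (4.5 to 4.77 CPM). R237H male P21 replicate 2 was high for Clec2g (30.2 CPM, others 22.3 to 23.0), Ms4a6bl (6.68 CPM, others 3.5 to 3.99) and Cd48 (33.7 CPM, others 28.2 to 29.0). R237H female P21 replicate 1 was low for Ms4a6bl (3.76 CPM, others 8.35 to 9.69), Cd48 (25.3 CPM, others 33.0 to 36.0) and Cd33 (11.9 CPM, others 17.2 to 18.7). R237H female P21 replicate 2, one of the rats with choroid plexus RNA, was high for Fcer1g (112 CPM, others 48.4 to 62.5) and Cd276 (37.3 CPM, others 21.9 to 24.3). Siglec5 was 10.7 CPM in WT male P56 replicate 4 (6.9 to 7.33 in the others), Cd83 16.9 CPM in WT female P56 replicate 4 (14.6 to 14.9) and Cd180 21.4 CPM in R237H female P56 replicate 1 (16.1 to 16.6).

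The genotype effect differed between ages by the interaction test of edgeR. In males the difference of log2 fold changes, P56 minus P21, was 3.33 for Ms4a6bl, 2.62 for Clec4a1, 1.52 for Tlr7, 2.05 for Fcgr2b, 1.73 for Fcgr1a and 3.38 for Tlr8. In females it was 1.41 for Cd9, 1.72 for Clec4a1, 2.68 for Clec7a, 2.95 for Tlr8, 2.32 for Ms4a6bl and 1.34 for Ms4a6a. The female values of Cd9 and Clec7a are a description and carry no FDR, since the male tables did not list them at both ages.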

How the results depend on the processing

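The 18 counts stayed within 1.5 times their value with RLE factors, with no filter and with at least 10 counts in every rat. Members increased in P21 females fell from 42 to 16 with the number in the title as a replicate block. Same-numbered R237H and WT rats did not deviate together in every pair (correlations of 0.21, 0.0353, -0.00135 and -0.0233 in P56 males, 0.0827 and 0.425 in P56 females, -0.000525, 0.0623 and 0.341 in P21 females). So few pairs cannot decide whether a number marks a litter or a batch, which the labels do not say. The numbers were not taken to pair rats. With this block 51 members were increased in P56 males and 48 in P56 females. P21 males all carry the same number, so no block was fitted there. Decreased members in P56 females, 0 in the report, were 2 at an FDR under 0.05, 1 by DESeq2 and 1 by the likelihood-ratio test. Female effects larger at P56, 7 in the report, were 17 at an FDR under 0.05, 16 by DESeq2, 13 by the likelihood-ratio test and 1 without the rats with choroid plexus RNA. Members higher with age in WT rats, 3 in the report, were 9, 6 and 6 by the first 3 of these. The causes were not tested.

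With each rat left out in turn, members increased ranged from 28 to 43 in P21 females, 41 to 44 in P21 males, 51 to 53 in P56 females and 47 to 53 in P56 males. The count for P21 females was 28 without WT replicate 1 or 2. Effects larger at P56 ranged from 11 to 23 in males and 1 to 9 in females, members higher with age in WT rats from 3 to 6 and lower from 1 to 2, and the other counts stayed at 0. The female count was 1 to 4 without R237H P21 replicate 4, R237H P56 replicate 2 or 4, any 1 WT female at P21, or WT P56 replicate 2, 3 or 4. Trem2 in P56 males ranged from -0.09 without R237H replicate 3, a reversal, to 1.08 without WT replicate 4. Of 140 log2 fold changes of named members, 48 moved by more than the spread between rats on the log2(TPM + 0.1) scale and 78 on the log2(TPM + 1) scale, 0 of them to the other sign. Counting relatives named only by a reference table was not run, because that table could not be joined to the identifiers. Depth limits Cd200r1l, Cd300c2, Clec4a2 and Ms4a12, which had the lowest mean counts of the members (6.06 to 10.7 per rat).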

Other observations

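Lilrb3l was below 0.25 CPM in 13 of 32 rats, 7 WT and 6 R237H, and 0.579 to 15.6 CPM in the others. Its paralog Lilrb2 was at most 0.19 CPM in those 13 rats and 0.108 to 3.09 CPM in the others, while Lilrb3 was at least 31.1 CPM in the R237H rats of the low group at P56. None of the P21 females was among the 13. Reads of these paralogs can be shared, and the rats were sorted here by the measured value, so no test was made.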
